A study of Mus musculus with 128 samples.

Results

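The livers of male wild-type C57BL/6J mice, untreated in every group, were compared at 15 and at 6 months of age. C57BL/6J is an inbred laboratory mouse strain in common use for studies of ageing, 6 months is young adulthood in it and 15 months is middle age. Of the 128 libraries of the series (8 tissues, 4 ages, 4 libraries for each tissue and age), 8 enter the comparison, 4 from livers at 6 months and 4 from livers at 15 months. The RNA came from whole frozen liver ground to powder, so the values are averages over all its cell types, and fewer cells of a type cannot be told apart from less RNA per cell. The labels do not say whether each library is a separate mouse, and the p-values measure the spread between libraries, which may in part be technical. The tables list 55285 gene symbols, and the 12518 with enough reads in these 8 libraries were all tested. The livers at 24 and 30 months are described beside them where a reader may want to know what followed, with no test, because they share the 6-month controls.

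Hepatocytes make up most of the liver and carry out its chemistry. They secrete most plasma proteins through the endoplasmic reticulum, dispose of amino acid nitrogen as urea, and clear drugs and hormones by oxidising them and then coupling them to glutathione, sulfate or glucuronic acid. The endoplasmic reticulum answers a load of unfolded protein by inducing its own chaperones, and inflammatory cytokines make hepatocytes produce acute-phase proteins. In rodents the pattern of growth hormone release also sets many liver genes at different levels in males and females.

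Of the 12518 genes, 472 (3.77%) changed at an adjusted p under 0.05, 190 higher (1.52%) and 282 lower (2.25%) at 15 months. The adjusted p is that of limma-trend on log2(normalised reads + 1), two-sided, with Benjamini-Hochberg adjustment over all genes tested, and fold changes below are on that scale. Most changes were modest: 236 of the 472 were under 1.5-fold, 68 were over 2-fold higher and 47 over 2-fold lower. The median log2 fold change over all genes was 0.016. At an unadjusted p under 0.05 there were 2529 genes. For 1659 genes (13.3%) the 4 libraries of one age lay apart from the 4 of the other with no overlap, and 468 of the 472 were among them. The library that left the comparison decided much of the count. It was 106 without 6-month library 1, 148 without 6-month library 2, 122 without 6-month library 3, 291 without 6-month library 4, 531 without 15-month library 1, 212 without 15-month library 2, 362 without 15-month library 3 and 402 without 15-month library 4. With all 16 Liver libraries in the fit, which then share a single estimate of spread, 165 genes changed.

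**Figure D1:**
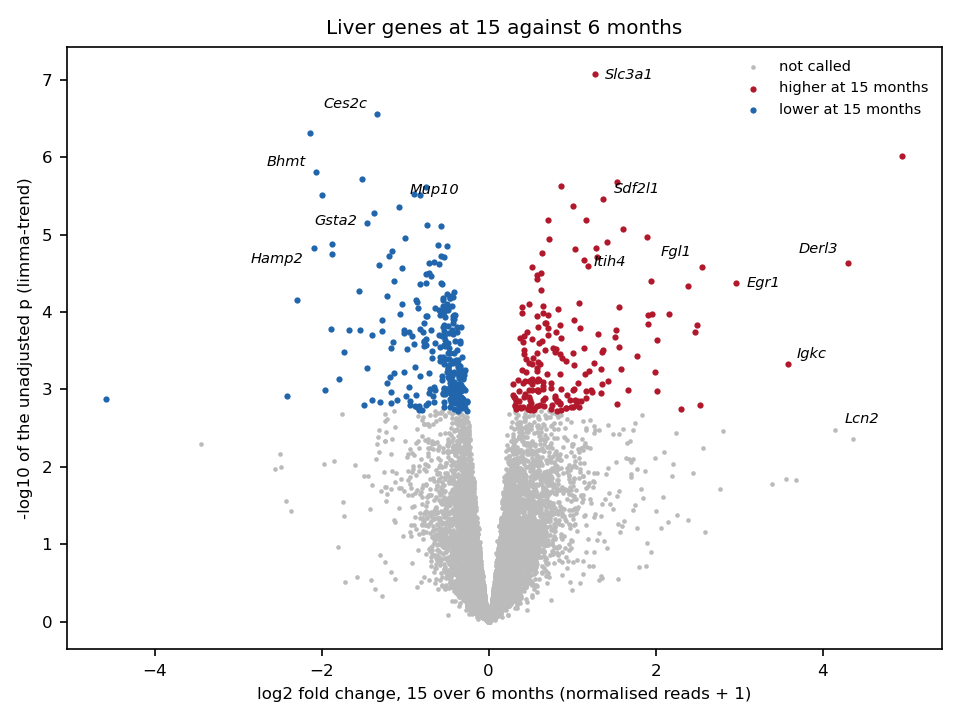
Each point is 1 of 12518 genes, with the log2 fold change of 15 over 6 months on the x axis and the -log10 of the unadjusted limma-trend p on the y axis; the 190 genes called higher are red and the 282 called lower blue. Derl3 lies far to the right at 4.31, and Bhmt at -2.07 and Ces2c at -1.33 are the leading named genes on the left.

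The reads behind the values numbered 11212267 to 13282806 per library at 6 months and 10645763 to 82801330 at 15 months. Hepatocyte markers defined these libraries at both ages: the 6 markers summed to 1662231 to 2060825 normalised reads at 6 months and to 1801785 to 2522480 at 15 months, and none of the 6 changed. 15-month library 3 stood apart. Its median rank correlation with the other 7 libraries was 0.966 (0.981 to 0.985 for the others), and it lay at 49.7 on the first principal component, which holds 38.2% of the variance, while the others lay between -28.4 and 15.8. Counts without it are given below as an alternative added after the data were seen. Of the markers of other cells, those of B and plasma cells summed to 119 to 196 at 6 months and 422 to 4079 at 15 months, those of neutrophils to 11.9 to 28.8 and 34.9 to 438, and those of Kupffer cells to 2781 to 4651 and 4551 to 5178. The 3 kidney tubule markers were at 0 in the 4 libraries of 6 months and summed to 1.95, 17.9, 4.14 and 1.27 at 15 months, with Slc12a1 at 0 in each of the 8. The value of 1 read was 1.61 to 1.99 at 6 months and 0.243, 1.28, 2.07 and 0.634 in 15-month libraries 1 to 4. The lowest of these sums therefore lie near the floor of the 6-month libraries.

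Genes of the endoplasmic reticulum's folding machinery rose together at 15 months. Of 30 tested genes of the endoplasmic reticulum stress list 13 rose and none fell, with a list median of 0.48 on the log2 scale. Derl3, which takes part in returning misfolded proteins from the endoplasmic reticulum for degradation, had the largest change of all genes named. It was at 10.8, 11.8, 41.7 and 97.3 normalised reads in the libraries of 6 months and at 460, 462, 833 and 550 in those of 15 months. The lowest library of 15 months lay well above the highest of 6 months, and the log2 fold change was 4.31 ± 0.59 (SE, adjusted p = 0.00677). Sdf2l1, a component of an endoplasmic reticulum chaperone complex, was at 342, 341, 412 and 548 and then at 915, 986, 1149 and 1141 (1.37 ± 0.15, adjusted p = 0.00338). Creld2, an endoplasmic reticulum stress-inducible protein, was at 354, 524, 562 and 689 and then at 1206, 1373, 1383 and 1137 (1.29 ± 0.17, adjusted p = 0.00618). Neither gene's groups overlapped.

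The abundant chaperones and oxidoreductases of the same compartment moved by smaller factors. Dnajc3, a co-chaperone that also inhibits the stress kinase PERK, was at 4588, 4894, 5172 and 5978 normalised reads at 6 months and 8138, 8272, 8749 and 8550 at 15 months (0.71 ± 0.09, adjusted p = 0.00446). Hyou1, a large chaperone of the Hsp70 family, was at 1722, 2599, 2553 and 2322 and then at 3979, 3813, 3417 and 3705 (0.71 ± 0.12, adjusted p = 0.0158). Dnajb11, a co-chaperone of BiP, rose by 0.65 (adjusted p = 0.0123). The disulfide isomerases Pdia3, Pdia4 and Pdia6 rose by 0.61, 0.52 and 0.67, and Hsp90b1, the Hsp90 of the endoplasmic reticulum, by 0.69. Hspa5, which encodes BiP itself, was at 9707 to 13521 normalised reads at 6 months and 14316 to 18283 at 15 months, a difference of 0.41 that missed the threshold (adjusted p = 0.092), as did Calr, the lectin chaperone calreticulin (0.45, adjusted p = 0.0809).

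The transcription factors of the stress response and other genes linked to it were less uniform. Among the factors named here only Atf5 was called. Atf5 rose by 0.52 ± 0.07 (adjusted p = 0.00686) and Ppp1r15a, a phosphatase subunit that restores translation after stress, by 0.65 (adjusted p = 0.0346). Asns, asparagine synthetase and a target of ATF4, was at 25.2, 37.1, 43.3 and 27.8 normalised reads at 6 months and 54.5, 196, 238 and 120 at 15 months (1.99 ± 0.41, adjusted p = 0.0296). By contrast, Xbp1 (0.45, adjusted p = 0.485), Atf4 (0.05, 0.825), Ddit3, which encodes the death-associated factor CHOP (-0.14, 0.719), and Herpud1 (0.06, 0.916) did not pass the test. Trib3, a pseudokinase induced by CHOP, stood at -0.84 with overlapping groups (adjusted p = 0.374).

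At the later ages the leading genes of this group were back in or below the 6-month range. Derl3 was at 11.6 to 68.8 normalised reads at 24 months and 18.6 to 73.6 at 30 months, and Sdf2l1 at 213 to 377 and 201 to 438. Dnajc3 was at 4297 to 5147 and 4252 to 4918. The 15-month libraries were thus the highest of the 4 ages for each of these 3 genes, with no overlap.

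The count of 13 was 12 without 15-month library 3, 7 without 6-month library 1, 2 or 3, and 8 with all 16 libraries. Sdf2l1, Dnajc3, Creld2, Derl3, Atf5, Dnajb11 and Hyou1 passed in each of the 8 fits that left out a library. Pdia6 and Hsp90b1 missed the threshold without 6-month library 1, 2 or 3 (adjusted p up to 0.0576 and 0.0573), and Pdia4 and Pdia3 also without 15-month library 2 (up to 0.0796 and 0.0917). Asns missed it without each 6-month library in turn and without 15-month library 2 or 4 (up to 0.0925), and Ppp1r15a without 6-month library 1, 2 or 3 and 15-month library 1, 2 or 3 (up to 0.102). In the 16-library fit Hyou1 was at an adjusted p of 0.126, Pdia6 at 0.127, Pdia4 at 0.103, Pdia3 at 0.0535 and Asns at 0.0569. Derl3 is also listed among the plasma cell markers, whose summed level over the 4 libraries of 15 months ran 422, 4079, 3124 and 524, and their part in these values was not tested.

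The promoters of these genes were read because they moved together. RefSeq promoters (GRCm38.p6, 250 bases before to 50 after the start of each gene, a build other than that of the expression tables) were found for 12 of the 13 genes that rose. They were searched on both strands for the endoplasmic reticulum stress element in its strict form, CCAAT, any 9 bases, then CCACG, a motif added after the values were seen. It was in the promoters of 5 of these 12, in those of 4 of the 15 members with a promoter that were not called, and in 17 of 9670 tested genes with a promoter (0.176%). The unfolded protein response element TGACGTG, also searched on both strands, was in 0 of the 12, in 1 of the 15 and in 3.22% of the tested genes. The list was assembled from known targets of this response, so these shares describe it and are no test. The 5 are printed on the strand of the gene with 20 bases on either side, the element in capitals, which reads in reverse in Creld2, Derl3 and the second element of Hsp90b1.
Creld2 (chr15:88819500-88819558, + strand): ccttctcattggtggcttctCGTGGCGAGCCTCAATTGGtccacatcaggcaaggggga
Derl3 (chr10:75893222-75893280, + strand): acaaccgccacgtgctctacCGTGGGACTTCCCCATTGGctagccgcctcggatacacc
Dnajc3 (chr14:118937807-118937865, + strand): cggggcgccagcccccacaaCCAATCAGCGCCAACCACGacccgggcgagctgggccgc
Pdia6 (chr12:17266471-17266529, + strand): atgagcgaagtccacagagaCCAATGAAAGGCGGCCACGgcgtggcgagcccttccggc
Hsp90b1 (chr10:86705513-86705676, - strand): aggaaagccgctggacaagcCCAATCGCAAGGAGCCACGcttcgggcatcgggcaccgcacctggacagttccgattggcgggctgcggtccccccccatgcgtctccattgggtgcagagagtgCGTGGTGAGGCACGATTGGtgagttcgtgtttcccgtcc
The element lay from 126 to 108 bases before the start in Creld2, 156 to 138 in Derl3, 105 to 87 in Dnajc3 and 98 to 80 in Pdia6. Sdf2l1, with the smallest adjusted p of the list, has no match in this form.

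Secreted proteins of the acute-phase response were also among the higher genes. Of 31 tested acute-phase and coagulation genes 6 rose and none fell, with a median of 0.71. Fgl1, a fibrinogen-like protein that hepatocytes release, is outside that list. It was at 1555, 1619, 1929 and 1639 normalised reads at 6 months and at 4111, 11530, 18426 and 10891 at 15 months. The 6-month libraries lay close together and each library of 15 months lay above them (2.56 ± 0.36, adjusted p = 0.00686). Itih4, a plasma protein of the inter-alpha-trypsin inhibitor family, was at 17689, 18470, 18531 and 17878 and then at 28187, 41189, 51821 and 42208 (1.14 ± 0.15, adjusted p = 0.00662). Hp, which encodes the haemoglobin-binding haptoglobin, was at 28574 to 32569 at 6 months and at 48363, 78462, 138768 and 66228 at 15 months (1.37 ± 0.26, adjusted p = 0.0201). Apcs, the pentraxin serum amyloid P, rose by 1.01, Lbp, the lipopolysaccharide-binding protein, by 0.99 and the haem carrier Hpx by 0.86.

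The classical markers of a strong acute-phase response were highest in 15-month library 3 and did not pass the test. Saa1, serum amyloid A, was at 741, 473, 459 and 270 normalised reads at 6 months and at 495, 3224, 33896 and 1776 at 15 months, and the groups overlapped (2.77 ± 1.0, adjusted p = 0.155). Lcn2, a siderophore-binding protein of neutrophils and inflamed hepatocytes, was at 19.9 to 37.1 and then at 64.4, 435, 6789 and 260, with no overlap (4.14, adjusted p = 0.0662). The metallothioneins Mt1 and Mt2 reached 13799 and 13859 in 15-month library 3 against 155 to 544 and 21.9 to 176 at 6 months, and neither passed (adjusted p = 0.224 and 0.134). The ages overlapped for Mt1 and not for Mt2, which was at 206 to 1480 in the other 3 libraries of 15 months. Socs3, the feedback inhibitor of cytokine signalling, was at 3849 in that library and at 148 to 350 in the other 3 of 15 months. Neutrophil markers summed to 438 there, and their part was not tested. None of the 5 neutrophil markers tested, of 17 in the list, changed, although S100a9 stood at 2.45 (adjusted p = 0.126) and Csf3r at 1.12 (0.186). All 5 differences were above 0 (median 1.19), and 1 marker passed without 15-month library 1, 3 or 4.

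Complement genes followed the secreted proteins. Of 27 tested 9 rose and none fell (median 0.23). Hc, complement component C5, was at 15687 to 17069 normalised reads at 6 months and at 21834, 28257, 26643 and 25675 at 15 months (0.63 ± 0.09, adjusted p = 0.00766). C8a, a part of the membrane attack complex, was at 15539 to 16858 and then at 21655, 25397, 27020 and 23946 (0.57 ± 0.08, adjusted p = 0.00852). C3, C4a and Cfb rose by 0.54, 1.17 and 0.44, and C1qa, C1qb and C1qc, which macrophages make, by 0.51, 0.59 and 0.80. C4b stood at 16787 to 17706 and then at 18682 to 26902 and missed the threshold (0.42, adjusted p = 0.0585). C4a and C4b are near-identical copies, and how the authors' counting split their reads is uncertain.

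Without 15-month library 3 the acute-phase list had 7 genes higher and 1 lower and the complement list 4 higher and 1 lower, and with all 16 libraries 2 rose in each. The acute-phase count was 1 without 6-month library 1, 2 or 3 or 15-month library 2, 2 without 6-month library 4, 14 without 15-month library 1 and 4 without 15-month library 4. The complement count was 2 without 6-month library 1, 2 or 3, 5 without 6-month library 4 and 3 without 15-month library 2 or 4. Fgl1, Itih4, Hc and C8a passed in each of the 8 fits with a library left out. In the 16-library fit C8a did not (adjusted p = 0.568). Hp was lost without 6-month library 1, 2 or 3 or 15-month library 2 (up to 0.0699). Apcs, Hpx and Lbp were lost without each 6-month library in turn or 15-month library 2, and the first 2 also without 15-month library 4 (up to 0.132). Of the remaining complement genes none passed in each fit (up to 0.142). At 24 and 30 months Itih4 lay at 25982 to 40534 and 33326 to 38426, still above the 4 libraries of 6 months.

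**Figure D2:**
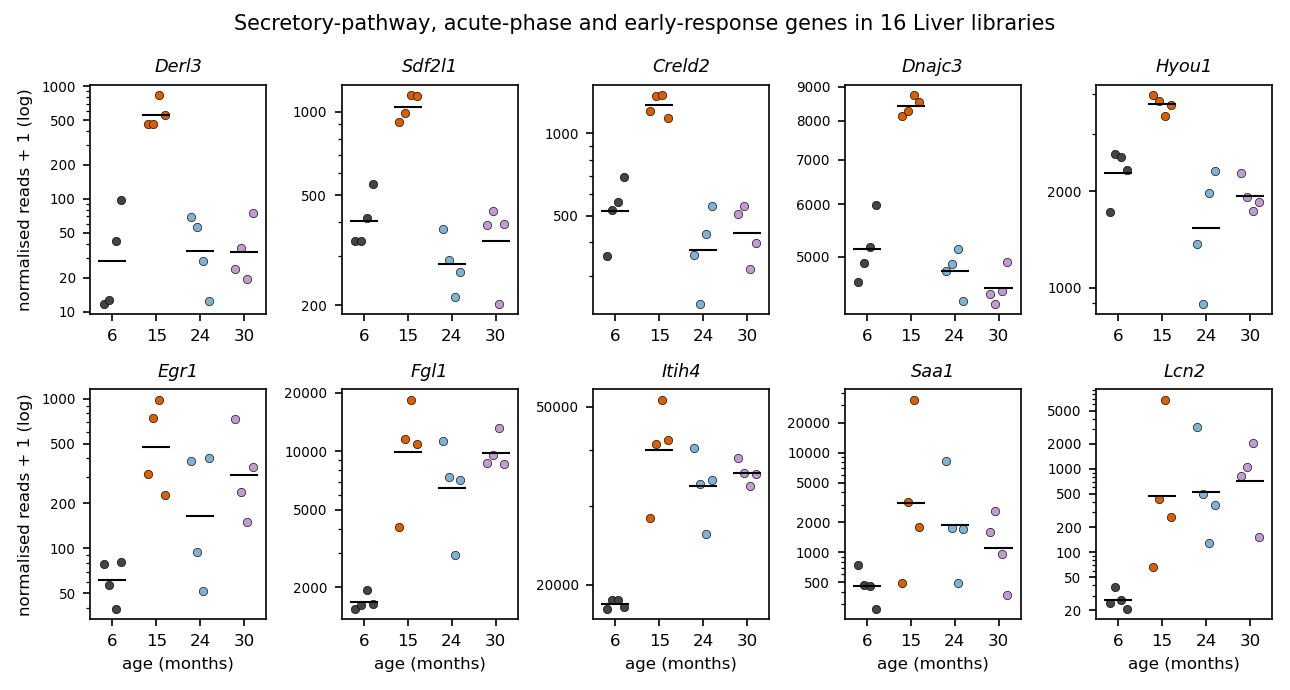
Each panel shows 1 gene, with normalised reads + 1 in each of the 16 Liver libraries on a log y axis against age in months on the x axis, and a bar at the mean of the log values. Derl3, Sdf2l1, Creld2, Dnajc3 and Hyou1 are highest at 15 months, while Saa1 and Lcn2 are led by a single 15-month library.

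Some transcripts of antibody-producing cells were more abundant at 15 months. Of 12 tested B and plasma cell markers 4 rose and none fell (Derl3, counted above, and 3 immunoglobulin-related genes). The differences of 9 were above 0 and those of 3 below, from -0.54 upward, with a median of 0.58. Igkc, the constant region of the kappa light chain, was at 91.7, 84.4, 61.0 and 91.4 normalised reads at 6 months and at 281, 3326, 2555 and 390 at 15 months (3.58 ± 0.71, adjusted p = 0.0259). Igha, the heavy chain of IgA, was at 23.4, 55.7, 64.2 and 59.6 and then at 235, 142, 213 and 148 (1.90 ± 0.31, adjusted p = 0.0133). Jchain, which joins antibody monomers, was at 35.3 to 47.7 and then at 95.3, 677, 527 and 99.0 (2.53 ± 0.59, adjusted p = 0.0461). In none of the 3 did the ages overlap, but Igkc and Jchain were several times higher in 15-month libraries 2 and 3 than in 1 and 4. Derl3 was not so at 15 months (460, 462, 833 and 550). At 24 months Igkc was at 1375 to 3098, Jchain at 300 to 597 and Igha at 33.7 to 428, while Derl3 was at 11.6 to 68.8. Immunoglobulin genes share sequence, and their reads may be split between copies.

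Macrophage transcripts rose by smaller factors. Of 28 tested Kupffer cell and macrophage markers 7 rose and none fell, with 27 of 28 differences above 0 and a median of 0.57. C1qa, C1qb and C1qc, counted above among the complement genes, are among the 7. Fcgr4, an activating Fc receptor, was at 53.9, 59.1, 61.0 and 83.4 normalised reads at 6 months and at 114, 165, 157 and 119 at 15 months (1.10 ± 0.19, adjusted p = 0.0157). Vsig4, the complement receptor by which Kupffer cells are recognised, was at 390, 451, 528 and 588 and then at 693, 778, 690 and 746 (0.59 ± 0.12, adjusted p = 0.0332). Lilrb4b, an inhibitory receptor of myeloid cells, rose by 1.01 and Cd68, a lysosomal macrophage protein, by 0.67. Gpnmb, a glycoprotein of lipid-laden macrophages, had too few reads to be tested, at 0 to 3.38 at 6 months and 8.51 to 16.6 at 15 months, and reached 27.0 to 284 at 30 months.

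Interferon-induced genes showed the same direction with few calls. Of 42 tested 4 rose (9.52%, against 1.52% over all genes) and none fell, 38 of 42 differences were above 0 and the median was 0.34. Zbp1, a sensor of Z-form nucleic acids, was at 55.7, 33.8, 65.8 and 45.7 normalised reads at 6 months and at 98.5, 157, 157 and 190 at 15 months (1.57 ± 0.25, adjusted p = 0.0123). Oas1a rose by 1.14 and Ifi27 by 0.81. Of 25 antigen presentation genes H2-Q7, a non-classical class I gene with close copies, was the only 1 called (0.58, adjusted p = 0.0336). That is 4% of the list, against 1.52% higher over all genes. No T or NK cell marker among the 5 tested changed, with Ly9 at 0.59 (adjusted p = 0.248) and Zap70 at -0.39 (0.338). At 24 and 30 months Zbp1 was at 118 to 1361 and 197 to 936, and Fcgr4 at 160 to 537 and 196 to 906.

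Igha and Zbp1 passed in each of the 8 fits with a library left out, but not with all 16 (adjusted p = 0.181 and 0.196). Igkc was lost without each 6-month library in turn or 15-month library 2 (up to 0.0853) and Jchain also without 15-month library 3 (up to 0.126). Fcgr4 and Ifi27 were lost without 6-month library 1, 2 or 3 (up to 0.0693). No other macrophage or interferon gene passed in each fit, and H2-Q7 reached 0.104. The macrophage count was 4 without 15-month library 3, 0 without 6-month library 1 or 3, 1 without 6-month library 2 or 15-month library 2, 3 without 15-month library 4 and 0 with all 16. The B and plasma cell count was 3 without 15-month library 3, 2 without each 6-month library in turn or 15-month library 2 and 6 without 15-month library 1. The interferon count was 3 without 15-month library 3, 0 with all 16, 1 without 6-month library 2 or 3, 2 without 6-month library 1 or 15-month library 2 and 10 without 15-month library 1.

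Immediate early genes, which answer signals within minutes and need no new protein, leaned upward, with few calls. Of 22 tested 3 rose (13.6%, against 1.52% over all genes) and none fell, with 21 of 22 differences above 0 and a median of 1.14. Egr1, a zinc finger transcription factor, was at 77.3, 55.7, 38.5 and 79.5 normalised reads at 6 months and at 313, 748, 986 and 226 at 15 months (2.97 ± 0.44, adjusted p = 0.00881). Fos was at 7.95 to 14.4 and then at 60.0, 122, 74.4 and 24.7 (2.47 ± 0.43, adjusted p = 0.0159). Fosl2, also of the AP-1 family, rose by 1.34 (adjusted p = 0.0396). For each of the 3 the ages lay apart. Egr1 passed in each fit with a library left out, Fos did not without 6-month library 1 or 2 (up to 0.0572) and Fosl2 not without each 6-month library in turn or 15-month library 2 (up to 0.114). The count stayed at 3 without 15-month library 3, and was 2 with all 16, 1 without 6-month library 1 or 2, 2 without 6-month library 3 or 4 or 15-month library 2 and 5 without 15-month library 1.

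Of 27 tested cytosolic chaperones 3 rose (11.1%, against 1.52% over all genes) and none fell, with 26 of 27 differences above 0. Hsp90aa1, the inducible cytosolic Hsp90, was at 3293, 5203, 4161 and 6846 normalised reads and then at 7272, 9844, 15685 and 8666 (1.08 ± 0.26, adjusted p = 0.0472). Dnaja4 rose by 1.03 and Hspa4l by 0.87. All 3 were lost without 6-month library 1, 2 or 3 or without 15-month library 2 or 3 (up to 0.134), and Hsp90aa1 also without 15-month library 4. The count was then 0, and it was 6 without 6-month library 4 and 5 without 15-month library 1. Among 23 clock genes 1 was called higher (4.35%, against 1.52% over all genes). This was Noct, a rhythmic nocturnin phosphatase (1.78, adjusted p = 0.0228, lost without each 6-month library in turn or 15-month library 2, up to 0.0765). It was at 637 to 911 and then at 1221, 4260, 4112 and 2254. The clock repressor Nr1d1 (-0.46, adjusted p = 0.446) and the output factor Dbp (-0.27, 0.475) did not pass, with overlapping groups.

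Of 25 p53 targets and senescence genes 1 rose (4%, against 1.52% over all genes) and none fell, with a median of 0.03. The count was 1 without 15-month library 4 and 0 without each other library in turn or with all 16. Cdkn1a, which encodes the cell cycle inhibitor p21, was at 16.1 to 35.8 normalised reads at 6 months and 19.4 to 76.5 at 15 months (0.43, adjusted p = 0.623). Gadd45b and Btg2 stood at 2.09 and 1.39, were highest in 15-month library 3 (287 and 1007) and did not pass (adjusted p = 0.174 and 0.18). No cell cycle gene of 24 and no glucocorticoid or metallothionein gene of 18 changed. With limma-trend the smallest adjusted p among the cell cycle genes was that of Cenpa (-0.60, 0.215).

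Genes of amino acid breakdown and the urea cycle were prominent among the lower genes. Of 39 tested 13 fell and 1 rose (Asns, above), 36 of 39 differences were below 0 and the median was -0.34. Bhmt, which remethylates homocysteine with betaine, is among the most abundant liver transcripts. It was at 107819, 101638, 80186 and 92635 normalised reads at 6 months and at 16613, 27101, 17694 and 33302 at 15 months. The highest library of 15 months was far below the lowest of 6 months, and the log2 fold change was -2.07 ± 0.21 (adjusted p = 0.00319). Hpd, which degrades tyrosine's keto acid, was at 35490, 30424, 32410 and 33916 and then at 21622, 23154, 21020 and 24777 (-0.55 ± 0.08, adjusted p = 0.0113). Otc, the ornithine carbamoyltransferase of the urea cycle, was at 12748 to 13618 and then at 8863 to 10142 (-0.43 ± 0.07, adjusted p = 0.0123).

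Further members fell by less than 2-fold. Ass1, the next enzyme of the cycle, was at 40982 to 48279 normalised reads and then at 22461 to 31742 (-0.69 ± 0.12, adjusted p = 0.0158). Oat, ornithine aminotransferase, fell by 0.89 and Cth, the cystathionine lyase that makes cysteine, by 0.76 on the log2 scale. Gpt, alanine aminotransferase, fell by 0.60, and the proline and hydroxyproline dehydrogenases Prodh and Prodh2 by 0.54 and 0.49. Tdo2, which opens the tryptophan ring, fell by 0.49. Otc, Ass1 and Oat, with Rgn (-0.32), were also the 4 of 32 hepatocyte identity and zonation genes that fell, and none of these rose. Bhmt remained low at 24 months (26804 to 40271) and ranged from 9660 to 71127 at 30 months, still below each 6-month library.

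The count of 13 was 12 without 15-month library 3, 6 with all 16, 3 without 6-month library 1, 7 without 6-month library 2 and 4 without 6-month library 3. Bhmt and Hpd passed in each of the 8 fits. Otc and Gpt missed the threshold without 6-month library 1 (0.0533 for each) and Prodh2 without 6-month library 3 (0.0511). Ass1 and Prodh were lost without 6-month library 1 or 3 (up to 0.0607), Oat and Tdo2 without 6-month library 1, 2 or 3 or 15-month library 2 (up to 0.073) and Cth without each 6-month library in turn (up to 0.0693). With all 16 libraries Otc, Oat, Cth and Tdo2 were lost (0.213, 0.113, 0.0601 and 0.0688).

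Conjugating enzymes had the highest share of lower genes of the 39 lists. Of 40 tested glucuronosyl-, sulfo- and glutathione transferases 16 fell (40%) and none rose, with a median of -0.37. Gsta2, an alpha class glutathione transferase, was at 2186, 2045, 1980 and 2269 normalised reads at 6 months and at 1153, 800, 610 and 636 at 15 months (-1.45 ± 0.17, adjusted p = 0.00453). Ugt2b1, a glucuronosyltransferase, was at 20194 to 22366 and then at 14221, 15087, 11459 and 11888 (-0.69 ± 0.10, adjusted p = 0.00785). Gstz1, which isomerises maleylacetoacetate in tyrosine breakdown, was at 16035 to 17232 and then at 12278 to 12780 (-0.41 ± 0.06, adjusted p = 0.0105). Neither age overlapped the other in these 3 genes. Gstm2 fell by 0.58, Gstt1 by 0.41, Gstk1 by 0.43 and the sulfotransferase Sult1b1 by 0.89. Many genes of these families are close copies, and the split of reads between them is uncertain.

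Other enzymes of drug and ester clearance moved less as groups. Ces2c, a carboxylesterase, had the smallest adjusted p among lower genes named here. It was at 3016, 2525, 2283 and 2328 normalised reads at 6 months and at 956, 1203, 912 and 957 at 15 months (-1.33 ± 0.11, adjusted p = 0.00173). Of 30 cytochrome P450 genes of families 1 to 3, 2 fell (Cyp2j6 by 0.56 and the coumarin hydroxylase Cyp2a5 by 0.76 on the log2 scale) and Cyp3a13 rose by 0.65. That is 6.67% lower and 3.33% higher, against 2.25% and 1.52% over all genes. The count of 2 was 7 without 15-month library 4, 4 without 15-month library 1 and 1 with all 16 or without 6-month library 1 or 3. Ces1g, also a carboxylesterase, was at 4878 to 5578 and then at 2752, 3135, 2962 and 3837 (-0.71 ± 0.10, adjusted p = 0.00766). With Nqo1, the quinone reductase (-0.66, adjusted p = 0.0374), it made 2 of 23 antioxidant genes lower (8.7%, against 2.25% over all genes). Cyp2b10, the P450 induced by the receptor CAR, was at 96.3 to 273 at 6 months and at 13.4, 20.4, 18.6 and 96.4 at 15 months (-2.42 ± 0.55, adjusted p = 0.0413).

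Gsta2, Ugt2b1, Gstz1, Gstm2, Ces2c, Ces1g and Cyp2j6 passed in each of the 8 fits with a library left out. Gstt1 and Cyp3a13 missed the threshold without 6-month library 1 (0.0524 and 0.0533), and Gstk1 and Cyp2a5 without 6-month library 1 or 3 (up to 0.0661). Sult1b1 was lost without each 6-month library in turn or 15-month library 2 (up to 0.0859), Nqo1 without 6-month library 1, 2 or 3 or 15-month library 2, 3 or 4 (up to 0.114) and Cyp2b10 in each fit but that without 15-month library 4 (up to 0.123). The count of 16 conjugating enzymes was 12 without 15-month library 3, 2 with all 16, and 4, 6, 5 and 7 without 6-month libraries 1 to 4, and 7 without 15-month library 2. Of the genes just named Gsta2, Ces1g, Cyp3a13, Cyp2a5 and Cyp2b10 passed with all 16, and Ces2c did not (0.215). At 30 months Ces2c was at 70.2 to 879, lower again, while Gsta2 was at 1637 to 2049.

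Some genes with different levels in male and female livers were lower, and others were not. Of 36 tested male-biased genes 6 fell and 1 rose, with a median of -0.20. Mup18, a major urinary protein gene, was at 394, 280, 327 and 282 normalised reads at 6 months and at 59.8, 81.7, 149 and 73.6 at 15 months (-1.88 ± 0.25, adjusted p = 0.00618). Mup10 was at 760, 652, 790 and 568 and then at 329, 292, 318 and 372 (-1.07 ± 0.12, adjusted p = 0.00365). Cyp4a12b, a male-biased fatty acid hydroxylase, was at 3487 to 4577 and then at 1727 to 2598 (-0.87 ± 0.14, adjusted p = 0.0117). Selenbp2 and Mup22 fell by 1.01 and 1.17. Ugt2b1 also fell and C8a rose, both counted above.

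Other male-biased genes did not pass. Mup20, the pheromone darcin, was at 139312 to 163121 normalised reads at 6 months and at 246824, 246980, 195160 and 115726 at 15 months (0.36, adjusted p = 0.396). Hsd3b5, a male-specific steroid dehydrogenase, was at 5080 to 6274 and then at 4401, 2152, 2944 and 4682, with no overlap (-0.73 ± 0.22, adjusted p = 0.0931). It was at 1579 to 2468 at 24 months and at 1.32 to 661 at 30 months. Among 22 tested female-biased genes 2 fell (9.09%, against 2.25% over all genes), Cyp2b10 and Hamp2, and none rose. Hamp2, a paralogue of the iron hormone hepcidin, was at 216, 142, 201 and 222 and then at 39.4, 29.3, 43.4 and 76.8 (-2.09 ± 0.27, adjusted p = 0.00599). It is also the 1 of 22 iron handling genes that fell, where Hp and Hpx rose. That is 4.55% lower and 9.09% higher, against 2.25% and 1.52% over all genes. Cyp2b9, a female-biased P450, was at 17.9 to 120 and then at 51.1, 15.3, 10.3 and 638, so that its mean depended on 1 library (0.02, adjusted p = 0.994). Car3, carbonic anhydrase 3, was at 96831 to 115157 and then at 55334, 56401, 57351 and 63888 (-0.89 ± 0.10, adjusted p = 0.00319). It was entered among the adipocyte markers, where it was the 1 of 7 that changed.

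Mup18, Mup10, Cyp4a12b, Hamp2 and Car3 passed in each fit with a library left out. Selenbp2 was lost without 6-month library 1, 2 or 3 (up to 0.062) and Mup22 without each 6-month library in turn (up to 0.0718). With all 16 libraries Hamp2 passed and Mup18 (0.264), Mup10 (0.468), Cyp4a12b (0.396), Selenbp2 (0.584), Mup22 (0.362) and Car3 (0.679) did not. The male-biased count of 6 lower was 9 without 15-month library 3, 0 with all 16 and 4 without 6-month library 1, 2 or 3. At 30 months Mup18 was at 0 to 17.0, Car3 at 531 to 36673 and Cyp4a12b at 102 to 1004. The Mup genes are a cluster of near-identical copies, and reads may be split between them. Igf1, the liver's main growth hormone target, was at 11762 to 13282 and then at 9251 to 14227 (-0.08, adjusted p = 0.788). Its receptor Igf1r was called (0.92, adjusted p = 0.0474), a call that was lost in each of the 8 fits with a library left out (up to 0.135).

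**Figure D3:**
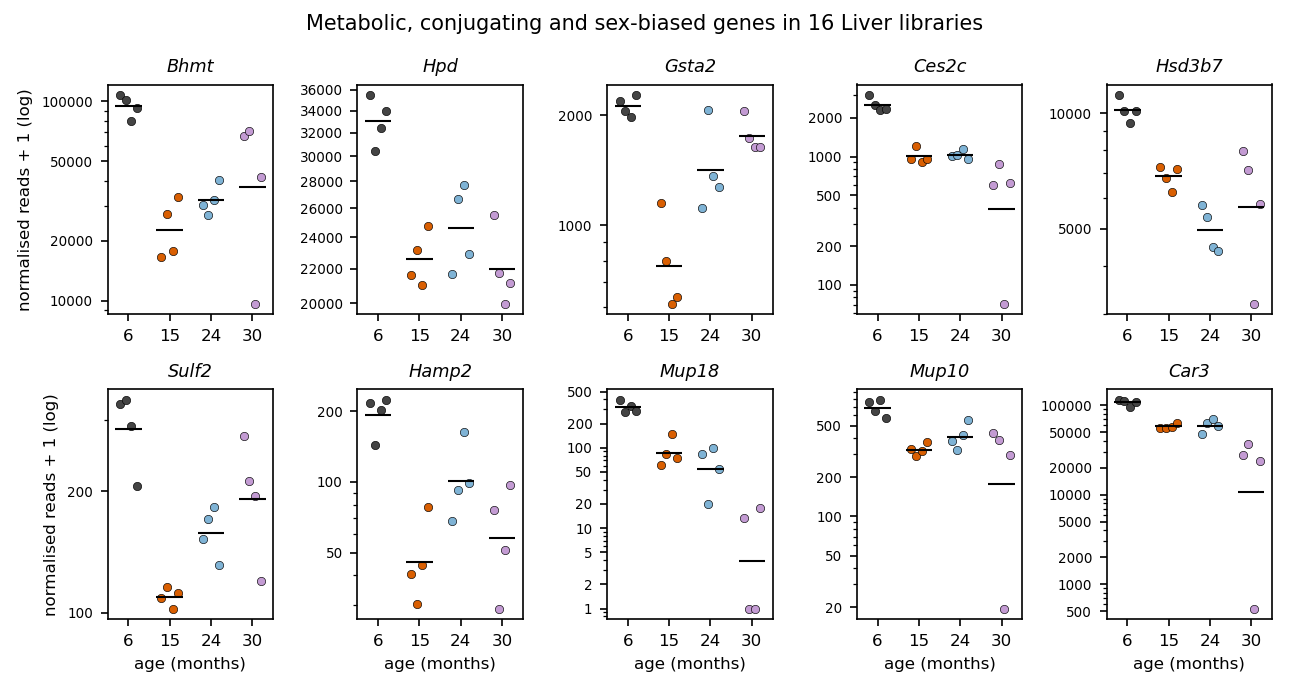
Each panel shows 1 gene, with normalised reads + 1 in each of the 16 Liver libraries on a log y axis against age in months on the x axis, and a bar at the mean of the log values. In each of the 10 genes the 4 libraries of 15 months lie below the 4 of 6 months, and Mup18, Ces2c and Car3 are lower again at 30 months.

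Bile acid genes leaned downward, with few calls. Of 27 tested 4 fell and none rose, and 24 of 27 differences were below 0 (median -0.25). Hsd3b7, an early enzyme of bile acid synthesis, was at 11160, 10140, 9423 and 10112 normalised reads and then at 7236, 6792, 6247 and 7134 (-0.57 ± 0.08, adjusted p = 0.00618). Acox2, the oxidase that shortens the bile acid side chain, fell by 0.35, the exporter Abcc3 by 0.58 and the reductase Akr1d1 by 0.53. Cyp7a1, the rate-limiting enzyme, was at 2815, 5139, 4408 and 2877 and then at 1247, 2957, 1071 and 1479 (-1.24 ± 0.30), just over the threshold (adjusted p = 0.0522). Hsd3b7 passed in each fit with a library left out but not with all 16 (0.176). The other 3 were lost without 6-month library 1, 2 or 4 or 15-month library 2, Acox2 also without 15-month library 3, Abcc3 without 6-month library 3, and Akr1d1 without 6-month library 3 or 15-month library 1 (up to 0.114). The count was 2 with all 16 or without 6-month library 3 and 1 without 6-month library 1, 2 or 4.

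Cholesterol synthesis gave no call with limma-trend among 27 tested genes, although 21 of 27 differences were above 0 (median 0.29). Sqle, squalene epoxidase, spread from 113 to 892 within the 6-month libraries (1.71 ± 0.57, adjusted p = 0.131). In fatty acid synthesis 1 of 24 genes fell (4.17%, against 2.25% over all genes). This was Srebf1, the lipogenic transcription factor, at 4069 to 7155 and then at 3988, 2577, 1639 and 2091 (-1.10 ± 0.25, adjusted p = 0.0436). The call was kept without 15-month library 1 and in no other of the 8 fits (up to 0.123), and its groups did not overlap. Fasn was at 6456 to 10253 and then at 7341 to 9912 (0.07, adjusted p = 0.839) and Scd1 at 143022 to 194614 and then at 90129 to 137442 (-0.49, 0.129).

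Of 22 lipid storage genes 2 fell (9.09%, against 2.25% over all genes). The count was 5 without 15-month library 3 and 1 without any other single library or with all 16. Cd36, the fatty acid receptor, was at 2012, 2342, 2129 and 1806 normalised reads and then at 1130, 1393, 1352 and 1451 (-0.64 ± 0.10, adjusted p = 0.0123) and passed in each fit. Mogat1, an acyltransferase, fell by 1.21 (adjusted p = 0.0351), and passed in the fit without 15-month library 3 and in no other (up to 0.104). Cidea, a lipid droplet protein of fatty liver, was at 1.99 to 64.2 and then at 12.8 to 80.6 (0.98, adjusted p = 0.591). None of 32 fatty acid oxidation genes and none of 26 glucose metabolism genes changed. In the former the smallest adjusted p was that of Cyp4a31 (0.98, 0.0592), and in the latter that of Irs2, the insulin receptor substrate (1.18, 0.0861), which was at 1641 in 15-month library 3 and 745 to 794 in the other 3.

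Respiratory chain transcripts were lower by small amounts. Of 65 tested nuclear genes of the chain 9 fell and none rose, 58 of 65 differences were below 0 and the median was -0.22. Ndufs1, the largest subunit of complex I, was at 2885, 2710, 2717 and 2924 normalised reads and then at 2258, 2139, 2198 and 2292 (-0.34 ± 0.06, adjusted p = 0.0179). Sdha of complex II and Cox7b of complex IV fell by 0.34 and 0.37. Of 13 mitochondrial genome transcripts 2 fell (15.4%, against 2.25% over all genes), mt-Atp8 by 0.76 and mt-Nd3 by 0.99 on the log2 scale. Both are short transcripts of a polycistronic precursor, and mt-Atp8 overlaps mt-Atp6, which did not pass (-0.50, adjusted p = 0.194). The nuclear count was 7 without 15-month library 3, 3 with all 16, 0 without 6-month library 1, 2 or 3 or 15-month library 2 and 1 without 6-month library 4. No nuclear gene of the chain passed in each fit (Ndufs1 up to 0.0734, Sdha 0.0911 and Cox7b 0.0966), and mt-Atp8 was lost without 6-month library 1 (0.0533) and mt-Nd3 without 6-month library 1, 3 or 4 or 15-month library 2 or 4 (up to 0.123).

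The housekeeping sets stayed near the median of all genes. None of 79 cytosolic ribosomal protein genes changed, with a median of 0.04 and a range of -0.40 to 0.33. Of 37 proteasome and autophagy genes 1 fell (2.7%, against 2.25% over all genes). This was Atg7, an enzyme of autophagosome formation (-0.48 ± 0.08, adjusted p = 0.0154, lost without 6-month library 1, 2 or 3, up to 0.0606). Of 32 stellate cell and fibrosis genes Bgn, the proteoglycan biglycan, rose (0.31, adjusted p = 0.0465), and of 24 sinusoidal endothelial markers Lyve1, a hyaluronan receptor, rose (1.02, adjusted p = 0.0379). These calls are 3.12% and 4.17% of their lists, against 1.52% higher over all genes. Bgn was lost in each fit but that without 15-month library 4 (up to 0.136) and Lyve1 without each 6-month library in turn or 15-month library 2 (up to 0.111). None of 10 cholangiocyte markers changed, with Sox9 at 0.77 (adjusted p = 0.189) and at 209 normalised reads in 15-month library 3 against 51.6 to 108 in the other 7.

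In all, 10 of the 39 lists had no member called with limma-trend, and edgeR's quasi-likelihood test also called none of their genes. At an unadjusted limma-trend p under 0.05 there were 2529 of all 12518 genes tested. In these lists there were 9 of 79 ribosomal protein genes and 6 of 18 glucocorticoid and metallothionein genes. There were 5 each of 27 cholesterol synthesis, 32 fatty acid oxidation and 26 glucose metabolism genes. The neutrophil and cholangiocyte markers had 3 each, of 5 and 10 tested. The rest were 2 of 24 cell cycle genes, 1 of 6 markers of blood and neighbouring organs and 0 of 5 T and NK cell markers. DESeq2 called 3 fatty acid oxidation genes, 2 glucocorticoid and metallothionein genes, 1 cholesterol synthesis gene and 1 neutrophil marker, and limma-voom 3 fatty acid oxidation genes. Over all 12518 genes DESeq2 called 932 and limma-voom 770.

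**Figure D4:**
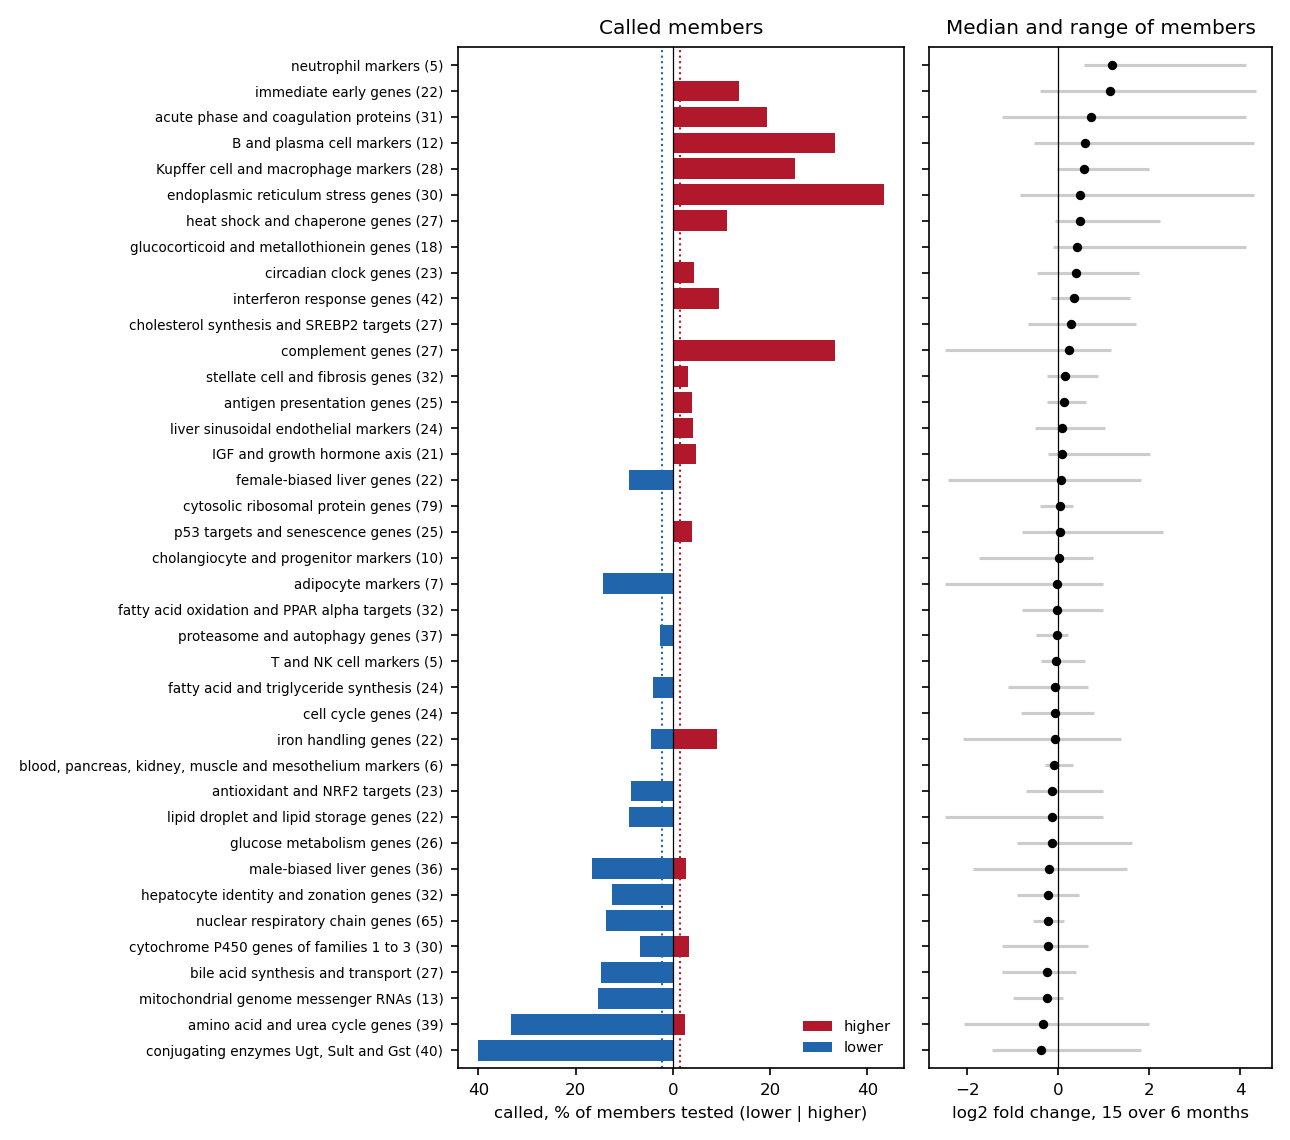
The left panel gives, for each of 39 gene lists (members tested in brackets), the percentage of members called higher (right) and lower (left), with dotted lines at the shares over all genes, 1.52% and 2.25%. The right panel gives the median (point) and range (line) of the members' log2 fold changes; the endoplasmic reticulum stress list has 43.3% higher and the conjugating enzymes 40% lower.

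Of the 12 highest and 12 lowest genes several belong to none of the lists. Gulp1, an adaptor for engulfment of dying cells, was at 16.2, 8.44, 12.8 and 13.9 normalised reads at 6 months and at 75.1, 94.4, 31.0 and 56.5 at 15 months (2.16 ± 0.36, adjusted p = 0.0133). Rgs1, a regulator of G protein signalling in leukocytes, rose by 2.02, as did Peg10, an imprinted gene of retrotransposon origin, by 2.02. Gtpbp4-ps1, annotated as a pseudogene of Gtpbp4, rose by 2.49, and its reads may be shared with the parent gene. Slc3a1, a subunit of the cystine transporter, had the smallest adjusted p of all genes and is named after its value was seen. It was at 811, 956, 866 and 878 and then at 1891, 2395, 2299 and 1925 (1.27 ± 0.10, adjusted p = 0.00106).

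Among the lower genes, Sulf2, an extracellular sulfatase that trims heparan sulfate, was at 327, 336, 289 and 205 normalised reads and then at 108, 115, 101 and 111 (-1.38 ± 0.16, adjusted p = 0.00408). The 15-month libraries agreed within a narrow range. Tceal8 was at 218 to 279 and then at 111, 79.1, 105 and 154 (-1.22 ± 0.19, adjusted p = 0.0112). Tsc22d1, a leucine zipper transcription regulator, fell by 1.40, Tymp, thymidine phosphorylase, fell by 1.28, Phospho1, a phosphatase of phosphocholine, fell by 1.27 and Clec2h, a C-type lectin, fell by 1.96. Hectd2os, a transcript antisense to Hectd2, was at 3086 to 4551 and then at 1215, 745, 674 and 1299 (-2.0 ± 0.22, adjusted p = 0.00319). No source used here gives whether reads were counted by strand, so its reads cannot be told apart from those of the gene it overlaps.

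Gulp1, Sulf2, Tceal8 and Hectd2os passed in each fit with a library left out. Tsc22d1 and Tymp were lost without 6-month library 1 or 2 (up to 0.0582), and Phospho1 and Gtpbp4-ps1 without 6-month library 1, 2 or 3 (up to 0.0618). Peg10 was lost without 6-month library 1, 2 or 3 or 15-month library 2 (up to 0.0612), Clec2h without each 6-month library in turn or 15-month library 2 (up to 0.112) and Rgs1 in each fit but that without 15-month library 4 (up to 0.101). With all 16 libraries Hectd2os (0.221), Clec2h (0.33), Tsc22d1 (0.0595) and Rgs1 (0.101) were lost. At 24 and 30 months Gulp1 was at 7.48 to 35.8 and 10.1 to 19.9, while Sulf2 was at 130 to 181 and 119 to 273.

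In the promoters of the genes named by rule, 103 of which matched the RefSeq table, 5 short motifs were searched on both strands. The E-box CACGTG was in 15.5% of these genes (11.8% of the tested genes with a promoter), the ROR element AGGTCA in 20.4% (15.7%), the STAT5 element TTCNNNGAA in 8.74% (8.4%), the D-box TTATGTAA in 2.91% (0.714%) and the unfolded protein response element in 2.91% (3.22%). Over all genes of the promoter table the shares were 8.09%, 18.1%, 9.55%, 1.11% and 2.22%. These are descriptions of letters in a window and no test was made.

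The change at 15 months was set against that in Kidney and in Heart, as the test of the difference itself between organs. Of 11923 genes tested in both organs 354 (2.97%) changed differently in Liver and Kidney, and of 11374 genes 233 (2.05%) in Liver and Heart. Of the 24 highest and lowest genes 17 could be tested against Kidney and 12 differed, and 13 could be tested against Heart and 7 differed. These were chosen for their change in Liver, which is part of the difference, so the counts are a description. Of all genes called in Liver and tested in both organs, 205 of 407 differed from Kidney and 128 of 354 from Heart, under the same limit. Bhmt stood at -2.07 in Liver and 0.90 in Kidney (difference -2.96 ± 0.38, adjusted p = 0.000321). Sulf2 stood at -1.38 in Liver, 0.32 in Kidney and 0.18 in Heart, with differences of -1.69 ± 0.18 (adjusted p = 7.57e-05) and -1.56 ± 0.17 (0.000233). Gulp1 stood at 2.16, -0.65 and -0.29, with differences of 2.81 ± 0.42 (0.00165) and 2.45 ± 0.39 (0.00422). For Derl3 the difference from Kidney was 3.15 ± 0.72 (0.0233), and Kidney's own change was 1.16 (adjusted p = 0.0477). Sdf2l1 also rose in Kidney by 0.80 (0.0268) and in Heart by 1.11 (0.00308), and neither difference passed (0.276 and 0.665). Creld2 rose in Kidney by 0.45 (0.0244) and in Heart by 0.47 (0.0293), and only the difference from Kidney passed (0.0379 and 0.0648). Dnajc3 stood at 0.11 in Kidney (0.434) and 0.23 in Heart (0.0403), and both differences passed (0.00567 and 0.0175). For Egr1, Fos, Igkc and Jchain neither difference passed, where one was tested. Each organ was normalised in its own table, and the organs may come from the same mice, which the test does not model.

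**Figure D5:**
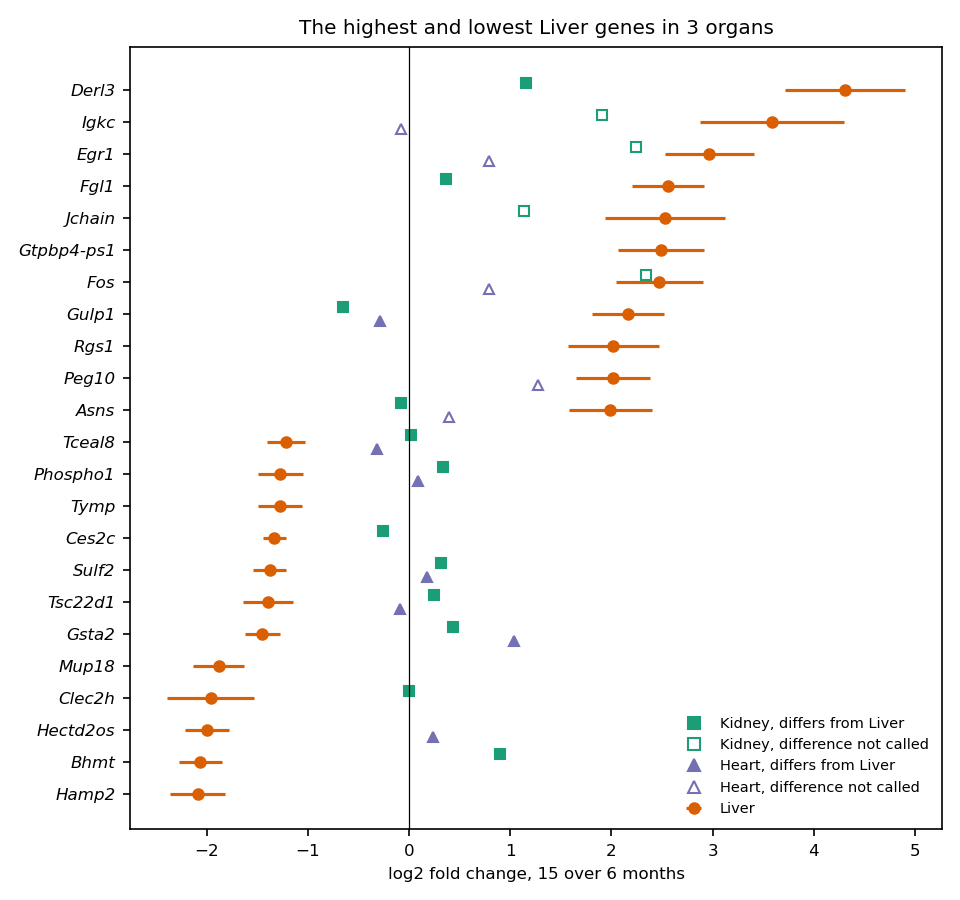
The x axis is the log2 fold change of 15 over 6 months for 23 of the 24 highest and lowest genes, on the y axis, with Liver as circles with SE bars, Kidney as squares and Heart as triangles, filled where the difference from Liver passed an adjusted p of 0.05 and open where it did not; a missing symbol means the gene was not tested in both organs. Bhmt, Sulf2 and Gulp1 lie near 0 or on the other side of it in Kidney, and Egr1 and Fos lie above 2 in Kidney as in Liver.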

How the data were processed

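RNA was sequenced from 8 tissues at 4 ages, and the 16 Liver libraries and the 6- and 15-month libraries of Kidney and Heart were used here. Per the labels' protocols, extraction was by RNAiso Plus and library preparation by Illumina Stranded mRNA Prep. The submitters' processing notes name STAR, RSEM, FastQC and DESeq2 (no versions) and the build GRCm39, while annotation and strand setting are given by no source used here. The authors deposited 1 table per tissue with a signal per gene and library, normalised reads, in which each library's reads were divided by 1 factor. In each Liver library 100% of values are whole reads within a tolerance of 0.01 reads, and these reads served for filters and count tests.

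The main test was limma-trend (limma 3.58.1, R 4.3.3) on log2(value + 1) over the 8 libraries of 6 and 15 months, for genes passing edgeR's filterByExpr (edgeR 4.0.16, minimum count 10), with Benjamini-Hochberg adjustment and a threshold of 0.05. Organs were compared by the contrast of changes over 16 libraries. No 2 libraries were copies. The fit was tested on simulated data. Alternatives were other scalings, pseudocounts and filters, edgeR, DESeq2 1.42.0, voom, a fit of all 16 libraries, the replicate block and each library left out. Counts of list members under these, and the endoplasmic reticulum stress and unfolded protein response elements, were added after the data were seen. Genes were named by rule: the 12 highest and 12 lowest called genes with a mean of 50 or more reads and no overlap (excluding Gm, Rik and immunoglobulin segment names), the 3 smallest p of each of 39 lists, and a panel of 18; further called list members and the stress factors were named after their values were seen. The comparison, its members and the lists were chosen with earlier results of these data known. Some genes that this rule names are not reported here.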

Additional observations from a re-analysis of the deposited data

Results flagged for a closer look

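In 22 of the 348 groups of 4 libraries examined (174 genes at 2 ages, 6.32%) the highest or lowest library stood far from its neighbours, as measured by its gap to the nearest library over the group's range. Chance flags about 1 in 20. 15-month library 3 was the library in 10 of the 22. It was the highest in Socs3 (gap 0.945 of the range), Lcn2 (0.945), Irs2 (0.945), Btg2 (0.93), Saa1 (0.918), Mt2 (0.907), Mt1 (0.891) and Cidea (0.87), and the lowest in Gpt (0.86) and Prodh2 (0.838). 15-month library 4 was the highest in Cyp2b9 (0.935) and Cyp2b10 (0.915) and 15-month library 2 in Ces2c (0.844). At 6 months library 4 was the highest in Cfb (0.904), Khk (0.903), Oas1a (0.847), Gstt1 (0.846), Pdia3 (0.846) and Bgn (0.834), library 3 was the highest in Igf1 (0.888) and the lowest in Cyp2j6 (0.834), and library 1 was the lowest in C3 (0.916).

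Of the 24 highest and lowest genes 17 could be tested against Kidney, and 12 of these changed differently in Liver and Kidney by the test of the difference itself. They were chosen for their change in Liver, which is part of the difference, so the counts here are a description. Liver minus Kidney was 3.15 on the log2 scale for Derl3 (adjusted p = 0.0233, limma-trend), 2.81 for Gulp1 (0.00165), 2.19 for Fgl1 (0.027) and 2.07 for Asns (0.0224). It was -2.96 for Bhmt (0.000321), -1.96 for Clec2h (0.045), -1.88 for Gsta2 (0.000373), -1.69 for Sulf2 (7.57e-05), -1.65 for Tsc22d1 (0.0065), -1.61 for Phospho1 (0.00583), -1.24 for Tceal8 (0.00356) and -1.07 for Ces2c (0.000119).

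Against Heart 13 of the 24 could be tested and 7 differed, under the same limit. Liver minus Heart was 2.45 for Gulp1 (0.00422), -2.49 for Gsta2 (0.00422), -2.23 for Hectd2os (0.000308), -1.56 for Sulf2 (0.000233), -1.36 for Phospho1 (0.00777), -1.30 for Tsc22d1 (0.0203) and -0.90 for Tceal8 (0.043).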

How the results depend on the processing

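The count of 472 changed genes (190 higher, 282 lower) was 165 (93 and 72) with all 16 Liver libraries, 932 (422 and 510) with DESeq2, 770 (313 and 457) with limma-voom and quality weights, and 269 (110 and 159) with no filter on low values, where 23020 genes were tested. Leaving out 1 library at a time gave 106 to 531 changed genes, 42 to 266 higher and 64 to 265 lower. It was 106, 148, 122 and 291 without 6-month library 1, 2, 3 and 4 in turn, 212 without 15-month library 2 and within 1.5 times without each other library. The other alternatives stayed within 1.5 times: edgeR's quasi-likelihood test called 455 genes with TMM and 446 with RLE scaling, reads scaled by TMM gave 502, pseudocounts of 0.1 and 5 gave 470 and 480, a mean of 50 or more reads gave 454 and thinning to the shallowest library (10645763 reads) gave 399. With the replicate block 346 genes were called (158 higher, 188 lower). Each gene's mean at an age was subtracted from its values at that age. The deviations of same-numbered libraries of the 2 ages then correlated at 0.145, 0.0256, 0.0229 and -0.0215. The numbers were therefore not taken to pair the libraries.

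Genes differing from Kidney numbered 354 (270 to 461 with a Liver library left out, 279 with the replicate block within tissue, 362 with edgeR), and from Heart 233 (149, without 6-month library 1, to 313, and 207 with the block). The edgeR test against Heart was not run, because 1 Heart library's value per read lies too near 1 for its reads to be recovered with certainty. The 105 called genes named here have 2098 values over the alternative fits. None changed sign, and 458 had an adjusted p over the threshold. The ages did not overlap in 468 of the 472 called genes. In those, leaving out a library cannot turn the sign, so the lack of sign changes there is no test. Of the genes that were not called, 6 changed sign: Cyp2b9, at -0.0737 with voom, -0.00269 with a pseudocount of 0.1 and -1.21 to 0.732 with a library left out, and, with a library left out, Fasn (-0.0279 to 0.202), Klrk1 (-0.0249 to 0.403), Igf1 (-0.182 to 0.0247), Atf4 (-0.0134 to 0.126) and Herpud1 (-0.0842 to 0.278). Where a count or call moved, the cause was not tested. The 15-month libraries hold 10645763 to 82801330 reads, so low genes are least precise in the shallowest.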

Other observations

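Several genes with known roles in liver were among the 3 smallest p of their list and missed the threshold. In antigen presentation these were Ctss, a lysosomal protease (0.54 on the log2 scale, adjusted p = 0.0705), and the class I gene H2-Q6 (0.61, 0.0738). Slc22a27, a female-biased transporter, stood at 1.27 (0.0664). In lipid genes Acaa1b, a peroxisomal thiolase, stood at -0.80 (0.0734), Aldh3a2 at -0.22 (0.0775), Elovl5 at -0.48 (0.0803), Plin4 at -0.85 (0.0791), Agpat2 at -0.42 (0.127) and Insig2 at -0.66 (0.133). Cfd, the complement and adipocyte protein adipsin, was at 67.5 to 478 normalised reads at 6 months and 10.9 to 124 at 15 months (-2.50, 0.0947).

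Among stellate and vascular genes that were not called, Vim stood at 0.43 (0.122), Acta2 at 0.76 (0.123), Cd34 at 0.75 (0.129) and Pecam1 at 0.27 (0.128). The biliary genes Pkhd1 and Krt23 stood at -0.52 (0.125) and -1.74 (0.187). The proteasome subunits Psmc3 and Psmb4 stood at -0.24 (0.0787) and -0.37 (0.0843), the peroxidase Prdx6 at -0.25 (0.0855), and the ribosomal genes Rpl23, Rpsa and Rpl12 at 0.33 (0.131), 0.27 (0.136) and 0.25 (0.16). The clock factor Bhlhe40 stood at 0.67 (0.127), the growth hormone signalling kinase Jak2 at 0.27 (0.122), and the glucocorticoid target Fkbp5 at 1.02 (0.134). The glucose transporter Slc2a2 and ketohexokinase Khk stood at -0.34 (0.158) and -0.24 (0.183), the cell cycle genes Ccna2 and Kif11 at -0.83 (0.237) and 0.52 (0.27), and the NK receptor Klrk1 at 0.26 (0.702). None of 6 markers of blood and of neighbouring organs changed, with Alas2 at -0.29 (0.116), Hbb-bt at -0.30 (0.385) and Hba-a1 at -0.16 (0.659).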
